A study of Sus scrofa domesticus with 2 samples.

Results

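The cells described here were 116 deeply sequenced, cultured pig aorta endothelial cells (ECs) with the highest level of TOP2A, UBE2C, CENPF and CDK1, genes of the G2 and mitosis (G2M) part of the cell cycle. Cells of the aorta library were kept with 5000 or more detected genes, with under 30% of their unique molecular identifiers (UMIs, each a counted transcript molecule) from 13 mitochondrial genes, and with more PECAM1 UMIs than COL1A1 and COL1A2 UMIs together. Of the 1185 cells of that library, 709 passed the first and second limits and 581 passed all of them. The cells were selected on the share of UMIs from the 4 genes, the top 20% being taken (116 of 581), and are called marker-high cells below. They were compared with the other 465 kept cells. The series held 7131 cells in 2 libraries.

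The study built a cell atlas of the domestic pig (Sus scrofa domesticus) and cultured primary ECs to look for endothelial-to-mesenchymal transition in them. The aorta ECs came from the stretch of aorta next to the lung, which was filled with digestion buffer, and the lung ECs came from 1 perfused leaf of lung digested with collagenase II and collagenase IV. Both were grown in PAEC medium, that is DMEM with 10% fetal calf serum, and neither carried a transgene or a treatment. Each culture was measured once by 10x Genomics 3′ single-cell RNA-seq of polyA RNA (v3 chemistry), so there was 1 library per tissue. The methods describe the pigs of the tissue libraries as crosses of Duroc, Landrace and Large White, 6 months old, and do not say whether the cultures came from such pigs. The sources used here do not give the number of pigs or the passage. The methods also set an upper limit of 5000 genes and treated cells beyond it as doublets. Whether that limit was used on the cultures is not stated. Here 709 of 1185 aorta cells, among them all cells described here, lay at or above it. The paper's count of cultured aorta cells after filtering is larger than the number of cells below the limit here.

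A dividing cell copies its DNA in S phase, prepares for division in G2 and separates its chromosomes in mitosis. Genes needed for G2 and mitosis are switched on late in this sequence, and many of their proteins are destroyed again as mitosis ends by the anaphase-promoting complex (APC/C), a ubiquitin ligase. Genes for DNA copying are on earlier, from the end of G1 through S phase. Endothelial cells in a healthy artery divide rarely, while in serum-containing culture they divide readily.

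The aorta library held 46080859 UMIs, with a median of 45594 UMIs and 6142 genes per cell, and the lung library 57213236 UMIs, with a median of 9326 UMIs and 2871 genes. The libraries shared 5 cell barcodes, of which 3 were kept aorta cells and 1 a marker-high cell. With 1 library per tissue and cells that are not replicates, no difference here has a replicate check and no test was run. Levels are UMIs of a gene per 1000000 UMIs of the same cells pooled (CPM). Intervals in brackets are exact 95% intervals (Poisson for a level, Clopper-Pearson for a share, conditional binomial for a ratio of levels, called a fold) and cover counting error only.

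All 4 genes that chose the cells have a part in chromosome handling or mitotic entry. TOP2A is the DNA topoisomerase that untangles and compacts chromosomes, UBE2C the ubiquitin-conjugating enzyme of the APC/C, CENPF a kinetochore and nuclear matrix protein, and CDK1 the kinase that drives entry into mitosis. On Sscrofa11.1 in the RefSeq annotation they lie at chr12:22001300-22028452 (TOP2A), chr17:48018403-48021542 (UBE2C), chr9:128948386-129012241 (CENPF) and chr14:64233945-64255290 (CDK1). Their promoter windows, from 250 bases before to 30 bases from the RefSeq gene start, are printed because these genes set the ranking, with that of the S phase gene MCM6 (a subunit of the helicase that opens DNA for copying) for contrast. The windows lie at chr12:22001050-22001329 on the plus strand (TOP2A), chr17:48018153-48018432 on the plus strand (UBE2C), chr9:129012212-129012491 on the minus strand (CENPF), chr14:64233695-64233974 on the plus strand (CDK1) and chr15:15923388-15923667 on the plus strand (MCM6). Capitals mark matches on either strand to TTTGAA (the core of the cell cycle homology region, CHR), CCAAT (the NF-Y box, read as ATTGG on the other strand) and TTTGGCGC or TTTCGCGC (E2F-type sites), and in the MCM6 window adjoining E2F-type matches overlap.
TOP2A: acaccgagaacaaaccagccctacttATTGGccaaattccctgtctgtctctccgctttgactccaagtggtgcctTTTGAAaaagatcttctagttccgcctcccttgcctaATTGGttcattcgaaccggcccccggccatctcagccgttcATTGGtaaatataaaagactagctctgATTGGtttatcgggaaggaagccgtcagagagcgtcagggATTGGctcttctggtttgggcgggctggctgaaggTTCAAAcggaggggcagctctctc
UBE2C: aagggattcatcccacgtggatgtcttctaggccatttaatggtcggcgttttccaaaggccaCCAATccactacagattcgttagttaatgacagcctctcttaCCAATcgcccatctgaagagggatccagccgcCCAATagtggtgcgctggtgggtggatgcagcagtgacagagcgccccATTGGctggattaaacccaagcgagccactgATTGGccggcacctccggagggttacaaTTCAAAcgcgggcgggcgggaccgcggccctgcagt
CENPF: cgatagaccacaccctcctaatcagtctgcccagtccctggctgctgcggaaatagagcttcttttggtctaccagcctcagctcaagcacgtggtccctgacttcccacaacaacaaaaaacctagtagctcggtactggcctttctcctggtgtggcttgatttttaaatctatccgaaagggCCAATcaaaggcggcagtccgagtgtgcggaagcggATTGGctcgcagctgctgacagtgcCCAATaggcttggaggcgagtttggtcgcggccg
CDK1: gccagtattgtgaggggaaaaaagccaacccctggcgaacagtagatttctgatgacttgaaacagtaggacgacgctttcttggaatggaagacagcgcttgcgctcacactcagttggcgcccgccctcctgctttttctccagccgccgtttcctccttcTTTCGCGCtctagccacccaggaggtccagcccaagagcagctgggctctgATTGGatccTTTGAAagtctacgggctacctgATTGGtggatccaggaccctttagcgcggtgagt
MCM6: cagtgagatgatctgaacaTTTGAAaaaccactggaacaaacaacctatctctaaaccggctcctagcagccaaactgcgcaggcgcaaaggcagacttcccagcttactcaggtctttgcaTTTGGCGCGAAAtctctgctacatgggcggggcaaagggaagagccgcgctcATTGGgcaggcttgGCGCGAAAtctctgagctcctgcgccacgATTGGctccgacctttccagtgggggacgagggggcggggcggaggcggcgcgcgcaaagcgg

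CCAAT or its complement was present in all 4 marker windows, with 5 matches each in TOP2A and UBE2C, and TTTGAA in 3 of 4, the exception being CENPF. Over all protein-coding genes CCAAT was present in 34.2% of windows and TTTGAA in 13.4%. In the S phase list the shares were 51.6% and 16.1%. The MCM6 window, printed for contrast, also held both TTTGAA and CCAAT matches beside its E2F-type matches. TTTGAA and CCAAT stood together in 23 of 94 windows (24.5%) of the other G2 and mitosis genes described below, against 970 of 19531 (4.97%) of all protein-coding genes of the annotation. In the S phase list the pair was present in 4 of 31 windows (12.9%) and in the endothelial list in 2 of 22 (9.09%). An E2F-type match was present in 4 of 94 of those G2 and mitosis windows (4.26%), in 4 of 31 S phase windows (12.9%) and in 209 of all 19531 (1.07%). A match says only that these letters are in the window, and a missing match only that they are not.

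Per cell, the 4 genes together reached 824 to 3477 CPM in marker-high cells, with a median of 1599. The other kept cells ranged from 0 to 820 CPM with a median of 49.2, and 95 of 465 had no UMI of any of the 4. The sets do not overlap because the cut was made on this value. The lowest marker-high cells were at 824, 830 and 837 CPM and the highest of the others at 820, 797 and 780 CPM, so there was no gap at the cut. Within 10% of it lay 11 marker-high cells and 7 other cells.

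**Figure D1:**
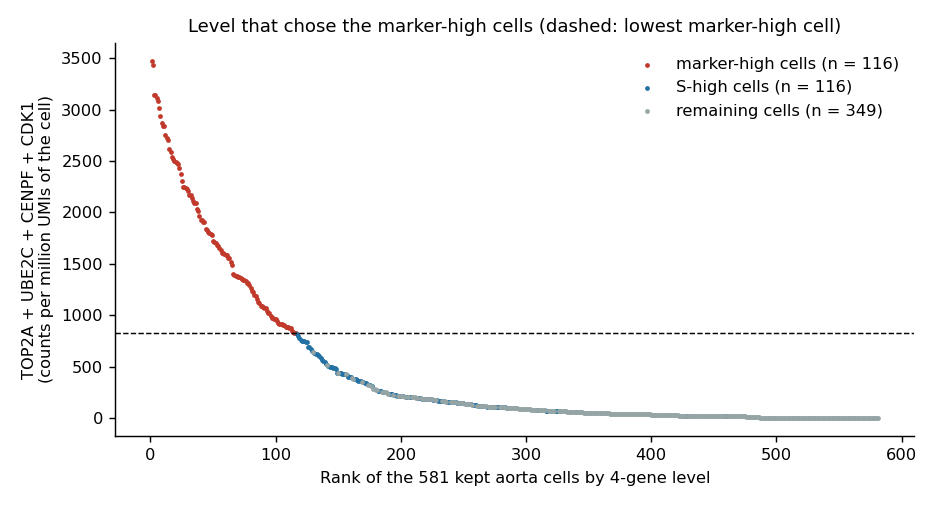
Each point is 1 of the 581 kept aorta cells, ranked by the summed level of TOP2A, UBE2C, CENPF and CDK1 (vertical axis, CPM of the cell). The level declined without a step through the dashed line at 824 CPM, the lowest marker-high cell, and the S-high cells (the 25% of the other cells with the most S phase UMIs) had a median of 233 CPM.

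Each of the 4 genes had UMIs in all 116 marker-high cells. TOP2A was at 648 CPM [631, 666] against 37.7 in the other kept cells, and per cell it spanned 38.1 to 1206 CPM. UBE2C was at 376 CPM [363, 390] against 35, CENPF at 486 CPM [471, 501] against 35.8, and CDK1 at 235 CPM [224, 245] against 22.8. These contrasts are what the rule selected and are given as a description. The same selection made anew in the lung library (with 3000 or more genes, since lung cells were shallower) gave 454 marker-high cells of 2272 kept, so the levels of these 4 genes are fixed by the selection there too. Their levels were 957 CPM for TOP2A, 454 for UBE2C, 815 for CENPF and 186 for CDK1, against 165, 69.8, 121 and 48.3 CPM in the other 1818 lung cells.

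Endothelial identity genes that the rule did not use were mostly level or lower in marker-high cells, without a 2-fold difference. PECAM1, the junction protein that the rule required in every kept cell, was at 1221 CPM against 1317. CDH5 (VE-cadherin) was at 181 CPM against 197 in the other cells, ERG (an endothelial transcription factor) at 143 against 152, and CAV1 (the caveolar coat protein) at 1285 against 1325. Of the 22 measured endothelial identity genes without PECAM1, none differed 2-fold in either direction, and their folds ran from 0.66 for ROBO4 to 1.40 for GATA2 with a median of 0.908, beside 1.02 over all genes tested. By their counting interval 13 of the 22 were below 1 and 1 above. Their summed level was 4820 CPM [4773, 4868] against 5437 [5409, 5465], a fold of 0.887 [0.877, 0.896], and S-high cells were at 4937 CPM. KDR (VEGF receptor) had a UMI in only 3 of the 116 cells and 8 of the other 465, and VWF (von Willebrand factor) in 0 of 116, which allows up to 0.361 CPM, and 6 of 465.

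Markers of other cell types summed to like levels in both sets, apart from the immune list. The collagen and mural genes other than COL1A1 and COL1A2 summed to 1369 CPM against 1376. Of the 5 measured, 4 were below 1 by their counting interval and 1 above, with a median fold of 0.878. COL1A1, which the rule limited in both sets, had a UMI in 49.1% of marker-high cells [39.7, 58.6] and 46.2% of the others [41.6, 50.9]. ACTA2 (smooth muscle actin) had a UMI in 17 of 116 cells and 64 of 465. By contrast, the 128 deep cells left out for their COL1A1 and COL1A2 UMIs summed to 6919 CPM for the same genes and to 1048 CPM for the endothelial identity list. The leukocyte gene PTPRC was at 0 in every kept cell. The summed immune list was at 265 against 374 CPM, nearly all of it LAPTM5 (261 against 367), which had a UMI in 116 of 116 and 465 of 465 cells. Of 15 immune genes 9 were at 0 in marker-high cells. The epithelial list was at 6.86 against 8.20 CPM, with 5 of 7 genes at 0.

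Marker-high cells held more RNA counts. They had a median of 72127 UMIs, from 28232 to 121613, against 54215 in the other cells, and 104 of 116 (89.7% [82.6, 94.5]) lay above that median of the others. Detected genes had medians of 7362 and 6567. After every cell was thinned to 25000 UMIs the medians were 5093 and 4882 genes, with 5091 in the S-high cells among the others. The mitochondrial share was 6.0% in the median marker-high cell and 6.90% in the others, with 6.08% in the S-high cells. Neither value set marker-high apart from S-high cells. The part of depth in the differences below was not tested, and the CPM scale removes only its linear effect. Scrublet called 6 of the 581 kept cells as doublets, none of them marker-high. Such calls can miss doublets of like endothelial cells, so they do not show whether marker-high cells included doublets.

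**Figure D2:**
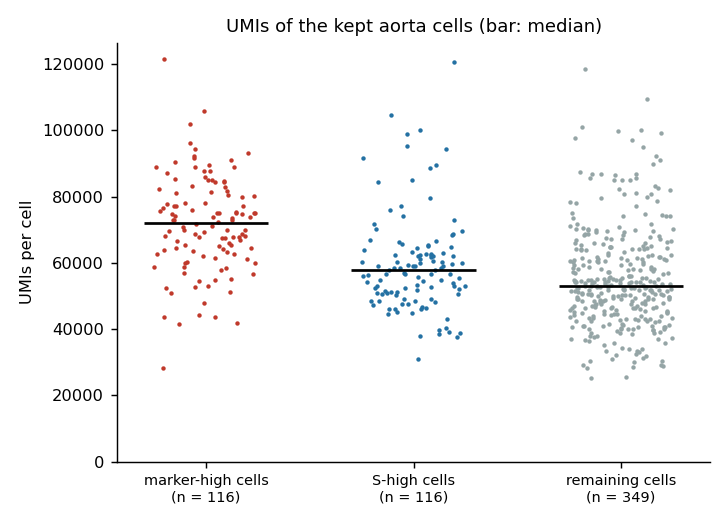
UMIs per cell (points) and medians (bars) of the 116 marker-high, 116 S-high and 349 remaining kept aorta cells. Medians were 72127, 57745 and 53117 UMIs, and the ranges overlapped.

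Across the transcriptome, 6067 genes reached 20 CPM in either set, of which 254 (4.19%) were at least 2-fold higher in marker-high cells and 23 (0.379%) at least 2-fold lower. Because the rule used this contrast, nothing is read from these shares. Outside the 4 markers, 95 genes of 6 G2 and mitosis lists were measured, and 78 were at least 2-fold higher and 0 at least 2-fold lower. Their median fold was 3.47, and summed they reached 10252 CPM [10183, 10321] against 3592 [3569, 3615], a fold of 2.85 [2.83, 2.88].

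Mitotic entry genes were 2-fold higher in 12 of 13 measured. AURKB (Aurora kinase B) was at 99.1 CPM against 12.7, FOXM1 (the transcription factor of late cell cycle genes) at 20.9 against 3.15, and PLK1 (Polo-like kinase) at 20.8 against 3.42. The cyclins CCNB2 and CCNB1, partners of CDK1, were at 85.3 against 17.5 and at 140 against 48.1 CPM. WEE1, the kinase that holds CDK1 inactive, had the lowest fold of the list, 68.0 against 37.4 CPM (1.82 [1.64, 2.02]).

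Genes for chromosome structure were 2-fold higher in 15 of 15. SGO1 (shugoshin, which protects cohesion at the centromere) was at 64.1 CPM against 7.40, a fold of 8.66 [7.34, 10.3], and NCAPH (a condensin subunit) at 63.0 against 8.96. ESPL1, the separase that cuts cohesin, was at 29.0 against 5.2 CPM. The condensin ATPases SMC4 and SMC2 had the smallest folds, 2.81 and 2.69, at 453 and 648 CPM.

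Kinetochore and checkpoint genes were 2-fold higher in 18 of 21. The checkpoint kinase TTK (MPS1) was at 60.02 CPM against 8.81 and NDC80, the microtubule-binding subunit of the kinetochore, at 83.7 against 20.3. BUB1B and BUB1 were at 108 against 35.6 and at 64.4 against 24.4 CPM. CENPM, CENPW and SPC24 stayed below 2-fold, at 1.86, 1.81 and 1.63.

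Spindle and motor genes were 2-fold higher in 19 of 21, led by the kinesins KIF18A (37.5 against 5.77 CPM) and KIF14 (28.5 against 4.67). KIF11 (the Eg5 motor that pushes spindle poles apart) was at 218 against 46.3 CPM, TPX2 at 292 against 90.6 and ASPM (a spindle pole protein) at 135 against 34.96. NUMA1, also used by cells outside division, was at 60.4 against 49.0 CPM. Of the passenger complex and cytokinesis genes 10 of 10 were 2-fold higher, with INCENP (the scaffold of the Aurora B complex) at 34.9 CPM against 3.49, a fold of 9.99 [7.87, 12.8]. CDCA8 (borealin) was at 62.6 against 9.11, BIRC5 (survivin) at 150 against 62.2 and ANLN (anillin, of the cleavage furrow) at 178 against 67.2 CPM.

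Among genes of the APC/C and its partners, 4 of 15 were 2-fold higher. They were FBXO5 (EMI1, an APC/C inhibitor) at 74.2 against 20.0 CPM, CKS2 and CKS1B (small subunits that bind CDKs) at 329 against 111 and at 188 against 84.7, and CDC20 (the mitotic activator) at 116 against 51.3. The core subunits measured, such as ANAPC2 (41.0 against 27.3), CDC27 (67.1 against 47.3) and ANAPC13 (44.3 against 57.6), lay between folds of 0.769 and 1.77. None of the core subunits measured passed 2-fold.

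Lists of chromatin, nuclear envelope and tubulin genes had lower median folds, 1.44, 1.56 and 1.45, with single genes well above them. HMGB2 (a chromatin protein of dividing cells) was at 524 CPM against 130 and EZH2 (the H3K27 methyltransferase) at 65.4 against 26.4, the only ones past 2-fold of 12 measured genes of that list, which holds histone variants but not the replication-type histones. Of those, HIST1H1D and H2AC20 are given below, and HIST1H1E, chosen after its values were seen, was at 119 against 37.8 CPM. Of 18 nuclear envelope and transport genes 7 passed, with KPNA2 (importin alpha) at 483 against 136, TMPO at 79.2 against 23.4, LBR (the lamin B receptor) at 70.7 against 26.5 and LMNB1 (lamin B1) at 109 against 44.1 CPM. LMNA (lamin A/C) was at 730 against 750. Of 10 tubulin and microtubule genes only TUBB6 passed, at 303 against 125 CPM. Tubulin and histone genes have near-identical copies, among which the counting could have split reads.

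S phase genes were also higher in these cells, which goes against a name that holds G2M alone. Of 32 measured, 20 were at least 2-fold higher than in the other cells and none was lower, with a median fold of 2.15. TK1 (thymidine kinase) was at 249 CPM against 73.3, PCNA (the sliding clamp of DNA polymerase) at 312 against 123, CLSPN (claspin) at 124.5 against 46.0 and E2F8 at 55.9 against 12.2. The G1/S cyclins CCNE1 and CCNE2 were at 29.1 against 16.1 and at 29.4 against 20.5, the latter the lowest fold of the list (1.43 [1.22, 1.67]). Summed, the list was at 2940 CPM [2903, 2977] against 1408 [1393, 1422], a fold of 2.09 [2.06, 2.12].

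The other kept cells were then split by their S phase UMIs into the 25% with the largest share (116 S-high cells, at 2106 CPM or more of the list) and the remaining 349. The split fixes the S phase difference between these sets, so only the place of the marker-high cells beside them is described. Marker-high cells had a summed S phase level of 2940 CPM, near the 3269 of S-high cells and far from the 743 of the remaining cells. Of the 116, 94 (81.0% [72.7, 87.7]) lay at or above the lowest S-high cell. G2 and mitosis genes without the 4 markers stood at 10252 CPM in marker-high, 6519 in S-high and 2547 in the remaining cells.

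Against S-high cells 56 of 6043 genes (0.927%) were at least 2-fold higher in marker-high cells and 9 (0.149%) at least 2-fold lower. Of the 95 G2 and mitosis genes 27 were 2-fold higher, with a median fold of 1.65, and of the 32 S phase genes none was 2-fold higher and 1 (CCNE2) 2-fold lower, with a median of 0.903. INCENP kept a fold of 4.32 and AURKB of 3.03 over S-high cells, while CCNB1 was at 140 against 94.3 CPM and MYBL2 (B-Myb, a transcription factor of the cell cycle) at 229 against 199. S phase genes with the lowest folds here were CCNE2 (29.4 against 60.7 CPM) and HELLS (42.5 against 80.1). PCNA, at 312 against 322 CPM, and LIG1 (DNA ligase I), at 38.1 in both, stood level.

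**Figure D3:**
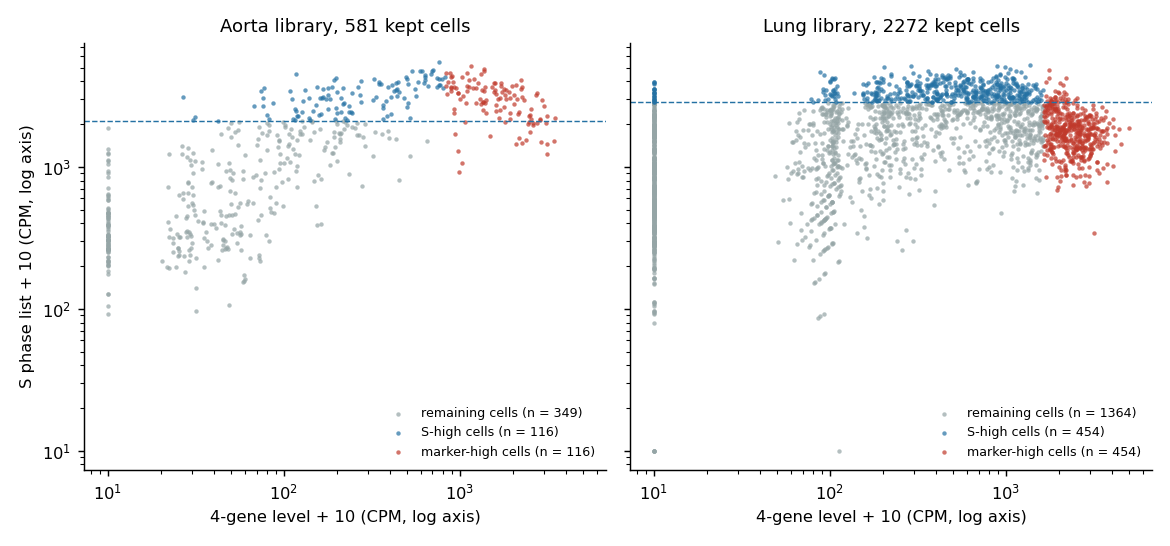
Each point is a kept cell, with the 4-gene level (horizontal) and the summed S phase list (vertical), both in CPM plus 10 on log axes, in the aorta (left) and lung (right) libraries. Dashed lines mark the lowest S-high cell of each library, at 2106 CPM in the aorta and 2848 CPM in the lung before the added 10. At or above its own library's line lay 94 of 116 aorta and 30 of 454 lung marker-high cells, so the cuts differ.

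Within the marker-high cells the S phase level was lower where the marker level was higher. The Spearman correlation over the 116 cells was -0.496, a description over cells of 1 library that share their total of UMIs. In the other 465 cells the same correlation was 0.782. The share of marker-high cells at or above the lowest S-high cell depended on where the cut lay. It was 44.8% for the top 10% of kept cells, 89.7% for the top 30% and 67.0% with a 6000-gene minimum.

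The marker-high cells were divided into 58 late and 58 early cells by the summed level of CCNB1, PLK1, CDC20 and DLGAP5, genes of late G2 and mitosis. Those 4 differ by construction, for example CCNB1 at 207 CPM in the late and 68.9 in the early cells. Of 6076 genes, 28 (0.461%) were at least 2-fold higher in the late cells and 17 (0.28%) at least 2-fold lower. CENPF was at 660 against 304 CPM, UBE2C at 516 against 231, ASPM at 208 against 59.8 and CENPE (a kinetochore motor) at 348 against 173. The S phase list was at 2625 CPM in the late and 3269 in the early cells, with PCNA at 246 against 380, MCM4 at 82.1 against 141 and CCNE2 at 17.6 against 41.6. FBXO5 was also lower in the late cells, at 53.4 against 96.0 CPM. Cells at or above the lowest S-high level were 41 of 58 late (70.7% [57.3, 81.9]) and 53 of 58 early cells (91.4% [81.0, 97.1]).

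The same rule in the lung library gave higher levels of the G2 and mitosis genes there too. These genes vary with the markers that chose the cells, so a rise follows in part from the selection. Within aorta marker-high cells their summed level followed the marker level (Spearman correlation 0.864). The lung values are therefore a description and no independent repeat. In the lung 127 of 5799 genes (2.19%) were at least 2-fold higher and 9 (0.155%) at least 2-fold lower in the marker-high cells. The G2 and mitosis genes summed to 11075 CPM against 4526, a fold of 2.45 [2.42, 2.47]. Of 92 such genes measured in both libraries, 67 were 2-fold higher in the lung, with a median fold of 2.70 against 3.43 in the aorta. INCENP was at 44.4 against 8.92 CPM in lung cells, AURKB at 105 against 29.2 and ASPM at 229 against 42.5. Of the 254 genes 2-fold higher in the aorta, 228 were measured in the lung, where 108 were 2-fold higher and 16 were below 1. The marker genes are among the 228 and the 108.

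The S phase genes differed in their place. In lung marker-high cells the list summed to 1822 CPM against 1887 in the other lung cells, a fold of 0.965 [0.946, 0.985], and of 28 genes measured in both libraries none reached 2-fold, with a median fold of 0.979 against 2.15 in the aorta. PCNA was at 109 against 144 CPM and MCM4 at 46.4 against 78.0. Only 30 of 454 lung marker-high cells (6.61% [4.5, 9.3]) reached the lowest lung S-high cell. That cell was at 2848 CPM, against 2106 CPM in the aorta, so the shares of the 2 libraries rest on unlike cuts. Per cell the list had a median of 1746 CPM in lung and 3017 CPM in aorta marker-high cells. The lung sets were not alike in their baseline, since the remaining lung cells held 1400 CPM of the S phase list and 4119 CPM of the G2 and mitosis genes, against 743 and 2547 in the remaining aorta cells. The lung result also rested on the gene minimum. With all lung cells above 200 genes the S phase fold was 1.48. Then 51.3% of lung marker-high cells reached the lowest S-high cell of that wider selection. Tissue, culture, depth and library cannot be told apart, and the difference between the libraries was not tested.

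**Figure D4:**
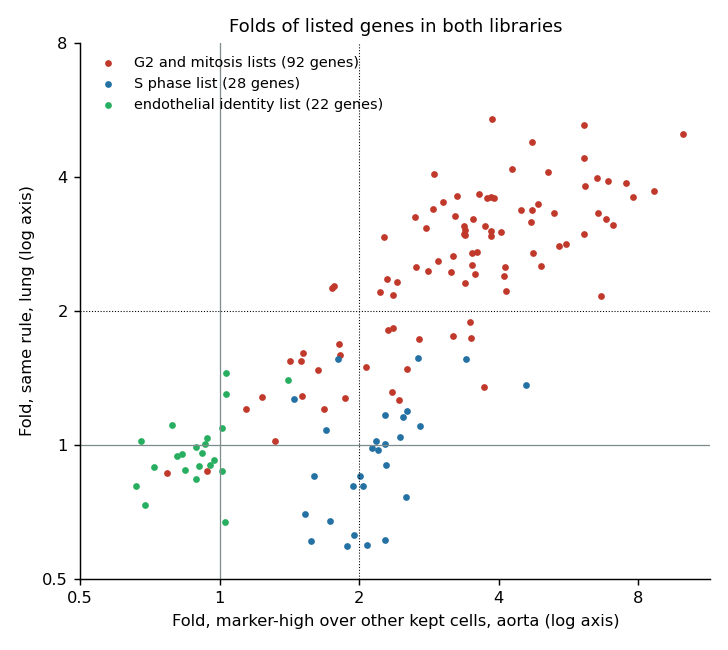
Each point is a listed gene at 20 CPM or more in both libraries, with its fold of marker-high over other kept cells in the aorta (horizontal) and lung (vertical, log axes). Grey lines mark 1 and dotted lines 2. G2 and mitosis genes were mostly past 2 in both, S phase genes (28) had a median of 2.15 in the aorta and 0.979 in the lung, and endothelial genes lay around 1.

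Genes of G1 and arrest were mostly lower or level. CDKN2C (p18), at 65.3 against 29.2 CPM, was the only one of 15 past 2-fold higher and TP53INP1 (a p53 target) the only one past 2-fold lower, at 15.3 against 32.1. CCND1 and CCND2, the D cyclins of G1, were at 148 against 213 and at 90.3 against 148 CPM, and BTG2 (antiproliferative) at 129 against 205. CCND1 was at 218 CPM in S-high cells and CCND2 at 121, so the lower values were also below those of S-high cells, whereas BTG2 was at 116 there.

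The genes SLPI, CFD, CRYAB and CCL5, a group given by an earlier look at these libraries and so no independent evidence, were lower. SLPI (an antiprotease) was at 214 CPM [204, 224] against 727, a fold of 0.294 [0.28, 0.309], and CFD (complement factor D) at 31.4 against 92.4. SLPI was uneven among cells, since the median cell held 27.1 CPM of SLPI among marker-high and 77.3 among other cells, the highest other cell 28668, and 1 marker-high cell gave 18.2% of the UMIs. Summed, the group was at 584 CPM in marker-high, 576 in S-high and 1708 in the remaining cells, so it did not set marker-high apart from S-high cells. In the lung it was at 184 against 366 CPM.

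**Figure D5:**
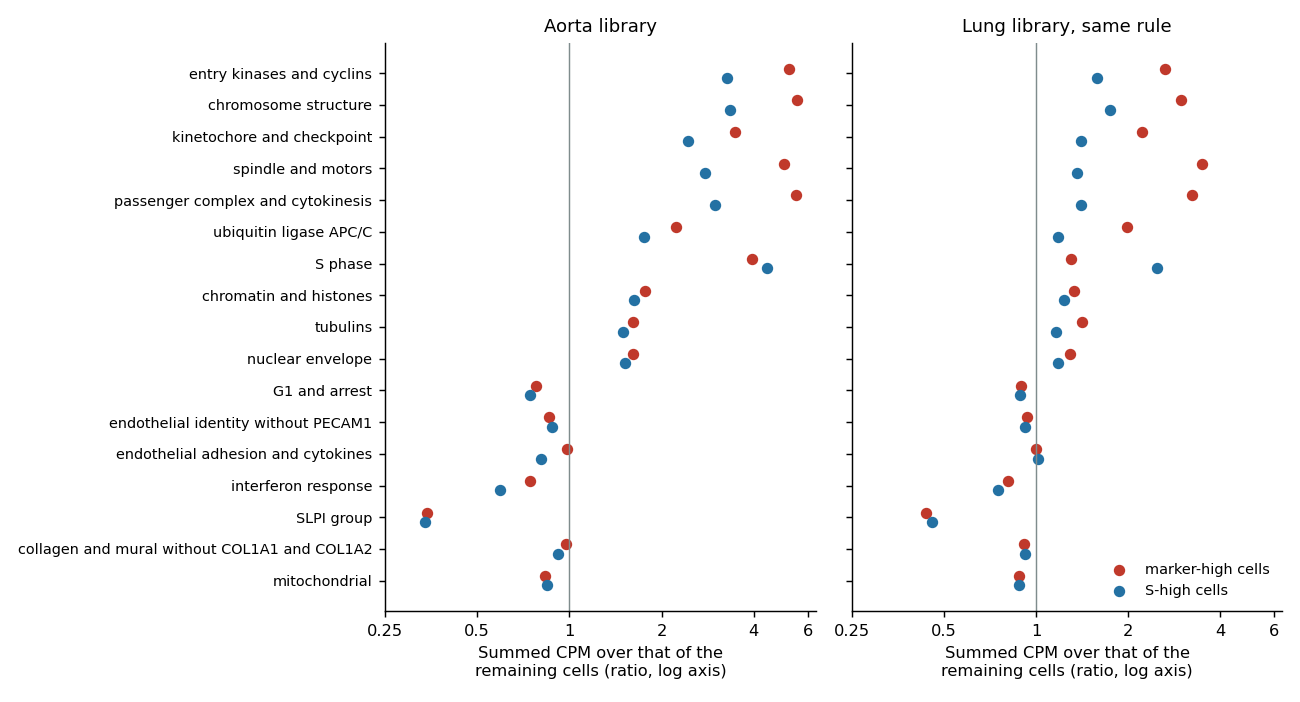
Summed level of each gene list in marker-high (red) and S-high (blue) cells, as a ratio to the remaining cells of the same library (log axis), without the 4 marker genes. In the aorta the G2 and mitosis lists were highest in marker-high cells, the S phase list was near S-high cells (2940 against 3269 CPM), and in the lung it lay nearer the remaining cells (1822 against 1400 CPM).

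The remaining lists held no gene past 2-fold in either direction. The endothelial adhesion and cytokine list (VCAM1, CCL2, CXCL8 and others) was at 15221 CPM against 14748, and 0 of 9 genes passed 2-fold. The interferon response list was lower, at 2627 against 3154 CPM (0.833 [0.821, 0.846]), with 14 of 17 genes below 1 by their counting interval and 2 above. S-high cells were lower still, at 2089 CPM, and the remaining cells were at 3534 CPM, so the list was not lowest in marker-high cells. ISG15 was at 802 against 879 CPM and MX2 at 64.8 against 106. RSAD2, of the same list, was at 17.6 CPM in the late and 127 in the early marker-high cells, but it had a UMI in only 42 of 116, and 1 cell gave 37.8% of its UMIs. Contact and YAP target genes (ANKRD1, CTGF, CYR61) summed to 7054 against 5842 CPM, immediate early and heat shock genes to 5591 against 4689, glycolysis genes to 8718 against 8612 and matrix and junction genes to 7153 against 8510, with 0 genes of these lists past 2-fold. The higher sum of the contact and YAP list was not shared by most of its genes. Their median fold was 0.952, with 5 of 14 above 1 and 3 below by their counting interval. THBS1 (thrombospondin 1) was at 4244 against 5103 CPM and FN1 (fibronectin) at 385 against 508.

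Outside the lists, the 10 genes with the highest folds at 50 CPM or more were MXD3, HIST1H1D, BBS7, MTFR2, SPDL1, H2AC20, RHNO1, RAD51AP1, AREG and DIAPH3. MXD3 (a repressor that pairs with MAX) was at 51.6 CPM [46.8, 56.7] against 6.76, a fold of 7.64, and only 12.6 in S-high cells, and in the lung at 45.9 against 14.01. SPDL1 (spindly, of the kinetochore) was at 137 against 31.5 CPM and DIAPH3 (a formin) at 116 against 32.1. HIST1H1D (a linker histone) was at 235 against 50.7 CPM, at 153 in S-high cells, and at 183 in the late against 290 in the early marker-high cells. RAD51AP1, of DNA repair, was at 54.3 CPM against 44.3 in S-high and 4.38 in the remaining cells.

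AREG (amphiregulin, a ligand of the EGF receptor) stood apart from this group. It was at 221 CPM [211, 231] in marker-high cells, 63.8 in S-high and 59.7 in the remaining cells. Thinned to 25000 UMIs, 44.8% of marker-high cells [35.6, 54.3], 25.9% of S-high [18.2, 34.8] and 24.4% of the remaining cells had an AREG UMI. One marker-high cell gave 11.5% of the AREG UMIs, and the level was 159 CPM in the late and 286 in the early cells. In the lung AREG was at 473 against 444 CPM.

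The 10 lowest were ANGPTL4, BDNF, PDK4, LTC4S, ACKR3, GJA5, FUCA1, MYO10, FGF2 and PLPP1, with folds from 0.375 to 0.541. GJA5 (connexin 40, of arterial endothelium) was at 132 CPM [124, 140] in marker-high cells against 294, with 253 in S-high and 309 in the remaining cells. Per cell its median was 56.3 CPM against 165, and 24 of 116 marker-high cells (20.7% [13.7, 29.2]) lay above the median of the others. In the lung it was at 130 against 206 CPM, and 138 in lung S-high cells. ANGPTL4 (a lipase inhibitor) was at 25.1 against 67.0 CPM in the aorta and at 56.3 against 146 in the lung. FGF2 (fibroblast growth factor 2), at 149 against 277 CPM, was at 126 in S-high cells and so was not lowest in marker-high cells. ACKR3 (a scavenging chemokine receptor), at 30.1 against 67.3 CPM in the aorta, was at 33.1 against 28.9 in the lung.

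The last 3 genes were picked after their values were seen. CCNB3 (cyclin B3) was at 43.9 CPM against 1.52, with 4.18 in S-high cells, and in the lung at 43.2 against 4.80. FAM83D (which brings a kinase to the spindle) was at 40.9 against 1.67 CPM and in the lung at 60.8 against 8.83. The identifier ENSSSCG00000036080, which the files do not pair with a name, was at 1102 CPM against 194, with 564 in S-high and 61.6 in the remaining cells, and at 813 in the late against 1406 in the early marker-high cells. Its level per cell followed the S phase list in the marker-high cells, with a Spearman correlation of 0.636 over the 116 cells of this 1 library.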

How the data were processed

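The authors deposited counts, whole UMI numbers per gene and cell from Cell Ranger 3.0.2 (a version given in the submitters' processing notes) on Ensembl Sscrofa11.1, before their limits on cells. Of 22804 features, 7821 had only an identifier, and a gene table named 1051 of them. Listed genes such as MKI67, CCNA2, AURKA, PTTG1 and RRM2 were not found by symbol and are not analysed here, and they may be among the 6774 features used under an identifier. Promoters came from the RefSeq genome and annotation of the same build by symbol, while the counts rest on Ensembl models.

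Python 3.11.15 with numpy 2.4.6, scipy 1.17.1, pandas 2.3.3 and scanpy 1.11.5 was used. Cells were kept and ranked as stated at the start, which uses 13 mitochondrial genes where the study's methods list 12. UMIs were pooled over the cells of a set and divided by their total, a gene counted as measured at 20 CPM in either set, and a fold of 2 was the limit. Doublets were called with Scrublet on the whole aorta library (8 of 1185 cells) and were left in. The fold and interval code was tested on simulated data. The cells, the 24 gene lists and the rules were chosen with earlier results of these data known. Genes were named by rule, as the 4 markers, up to 6 per list (highest, lowest and best known) and the 10 highest and 10 lowest folds outside the lists at 50 CPM or more. Further members are given as examples, chosen after their values were seen. Other limits on cells, rankings, gene minimums and scalings were tried as alternatives.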

Additional observations from a re-analysis of the deposited data

How the results depend on the processing

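The G2 and mitosis fold (2.85) stayed above 2 under all 14 alternatives. It was 2.74 with a 6000-gene minimum, 2.95 for the top 30%, 2.83 with ranking on thinned cells, 2.82 with the stricter endothelial limit (10 PECAM1 UMIs and 5 times the COL1A1 and COL1A2 UMIs), 2.82 without mitochondrial UMIs, and 2.80 after division by the median fold. Chosen after seeing the data, it was 2.73 as a mean over cells and 2.64 without the 10% of cells with most UMIs. The S phase fold (2.09) moved most with the cut, to 1.54 for the top 10% and 2.85 for the top 30%. It was 1.85 with a 6000-gene minimum, 2.13 on thinned cells, 2.05 ranked on UBE2C and CDK1, 2.14 on TOP2A and CENPF, 2.05 by the median fold, 2.15 as a mean over cells and 2.45 without the deepest 10%. The endothelial fold (0.887) was 0.905 for the top 10%, 0.864 for the top 30%, 0.87 by the median fold and 0.874 without the deepest 10%. The share above the median UMIs of the others ran from 86.2% to 90.5%. Genes 2-fold higher numbered 132 at a 50 CPM minimum, and genes 2-fold lower 8 there and 36 for the top 10%. The share of marker-high cells at the S-high level (81.0%) was 67.0% with a 6000-gene minimum, 44.8% for the top 10%, 89.7% for the top 30% and 89.4% without the deepest 10%. In the lung the G2 and mitosis fold (2.45) was 2.63 with all cells above 200 genes and 2.11 with 5000 genes (19 cells), and with cells above 200 genes the S phase fold turned from 0.965 to 1.48 and the share at the S-high level from 6.61% to 51.3%. The causes were not tested.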
